A study of Mus musculus with 22 samples.

Results

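The 5 genes described here encode 2 secreted neurotrophins and 3 of their receptors: Bdnf (brain-derived neurotrophic factor), Ntf3 (neurotrophin-3), Ntrk2 (TrkB, the receptor kinase for BDNF), Ntrk3 (TrkC, the receptor kinase for neurotrophin-3) and Ngfr (p75, the receptor shared by the neurotrophins). They were taken by name, 5 of 21883 protein-coding genes, and a peak belonged to a gene when its summit lay in the gene body or within 20 kb of it in the GRCm38 (mm10) build. These loci held 500 of the 563369 windows, each reaching 250 bp to either side of a peak summit, in which open chromatin was scored. Neurotrophins are made as precursors, and the mature proteins bind Trk receptor kinases, whose signal favours survival, growth and synaptic strengthening. The precursors bind p75 together with sortilin-family receptors, a route known for growth cone collapse and cell death. Bdnf is transcribed from several alternative promoters, each with its own first exon joined to a shared coding exon, and some of these promoters respond to neuronal activity.

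Chromatin accessibility was measured by OMNI-ATAC-seq, in which a transposase cuts and tags open DNA, in frozen hippocampus and frontal cortex of adult male wild type C57BL/6J mice. Every animal, controls included, had corticosterone (CORT, a stress glucocorticoid) in its drinking water for 7 days, 1 intraperitoneal dose of diisopropyl fluorophosphate (DFP, an organophosphate that inhibits acetylcholinesterase) on day 8 and intermittent CORT over 5 weeks. On the last day animals were given lipopolysaccharide (LPS, from the outer membrane of bacteria, an inflammatory challenge) and collected at 6, 12 or 24 h (3 animals each), or saline and collected at 6 h (2 animals). Both tissues of the 11 animals gave 22 libraries, with 204561 to 307140 distinct peak intervals each; read depth is unknown from peak lists. There were no animals without CORT and DFP among these groups, so every value below is from exposed mice. Saline was collected at 6 h only, so at 12 and 24 h LPS and the collection time cannot be told apart. Libraries shared more windows within a tissue than across tissues (mean Jaccard index 0.649 to 0.707 against 0.479 to 0.520). Peak density was called higher in hippocampus at 6 of 7 hippocampal markers (Zbtb20, with 63 windows called higher in hippocampus and 4 in frontal cortex) and higher in frontal cortex at 5 of 7 frontal cortex markers, with 1 of these 7, Tle4, called higher in hippocampus. Of 8 striatal markers, 5 were also called higher in frontal cortex and 0 in hippocampus, with a summed density of 70.4 to 78.0 in hippocampus and 74.4 to 91.2 in frontal cortex, and their part in the results below was not tested. Calls for hippocampus and frontal cortex numbered 3 and 2 of 8 inhibitory neuron markers, 2 and 2 of 7 astrocyte, 2 and 5 of 9 oligodendrocyte lineage, 0 and 1 of 8 microglia, 2 and 1 of 8 endothelial and mural, and 1 and 1 of 3 tested choroid plexus markers. Over all genes tested, the same calls were made at 16.1% for hippocampus and 26.5% for frontal cortex. In tissue pieces, fewer cells of a type and less accessibility per cell cannot be told apart.

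RefSeq (GRCm38.p6) gave promoter sequences, from 250 bases before to 50 after a start, for 11 starts of 4 of the genes: 7 of Bdnf, 2 of Ntf3 and 1 each of Ntrk2 and Ngfr. Ntrk3 had no entry. Those printed here are the Bdnf start that was open in every library, the Bdnf start at which coverage was seen in 3 hippocampus libraries and no frontal cortex library, and the starts of the receptors Ntrk2 and Ngfr, open in every library. Capitals mark TGACG (the core of the cyclic AMP response element), GGGCGG (the GC box) and TATAAA (the TATA box), each searched on both strands.
Bdnf start at 17.7 kb, chr2:109692186-109692485, + strand: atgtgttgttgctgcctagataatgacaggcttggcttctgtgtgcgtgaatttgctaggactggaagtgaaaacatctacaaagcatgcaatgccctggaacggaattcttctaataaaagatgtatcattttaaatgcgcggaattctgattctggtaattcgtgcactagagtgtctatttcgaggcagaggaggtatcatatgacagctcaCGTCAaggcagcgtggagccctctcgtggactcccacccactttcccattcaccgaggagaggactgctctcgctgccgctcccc
Bdnf start at 48.2 kb, chr2:109722671-109722970, + strand: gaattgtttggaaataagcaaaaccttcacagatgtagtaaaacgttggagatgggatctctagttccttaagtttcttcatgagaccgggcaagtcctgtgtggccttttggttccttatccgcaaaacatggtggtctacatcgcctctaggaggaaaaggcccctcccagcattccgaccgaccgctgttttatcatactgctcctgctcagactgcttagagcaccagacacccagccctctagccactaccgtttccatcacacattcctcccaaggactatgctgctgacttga
Ntrk2 start, chr13:58806319-58806618, + strand: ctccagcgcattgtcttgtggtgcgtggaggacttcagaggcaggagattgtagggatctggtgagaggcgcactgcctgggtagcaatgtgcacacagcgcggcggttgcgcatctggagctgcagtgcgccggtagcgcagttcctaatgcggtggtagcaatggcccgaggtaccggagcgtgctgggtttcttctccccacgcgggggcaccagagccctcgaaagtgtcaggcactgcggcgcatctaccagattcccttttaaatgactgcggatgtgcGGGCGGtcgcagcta
Ngfr start, chr11:95587649-95587948, - strand: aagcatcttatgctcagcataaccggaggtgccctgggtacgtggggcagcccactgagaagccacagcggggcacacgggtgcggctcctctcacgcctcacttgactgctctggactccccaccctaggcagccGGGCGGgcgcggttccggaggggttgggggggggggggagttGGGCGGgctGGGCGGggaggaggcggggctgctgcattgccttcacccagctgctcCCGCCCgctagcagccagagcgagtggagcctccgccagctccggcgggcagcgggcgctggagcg

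The Bdnf start at 17.7 kb was the only one of the 11 with TGACG, which 20.8% of 32851 promoters hold. GGGCGG was found in 6 of the 11 (35.7% of all promoters), at both Ntf3 starts, at Ntrk2, at Ngfr and at the Bdnf starts at 2.3 and 18.3 kb. The full palindrome TGACGTCA, which contains TGACG, and TATAAA were in none of the 11 (1.79% and 13.6% of all promoters). CACGTG, the E-box, was found at the first Ntf3 start alone (7.15% of all promoters). These are matches of letters and not measured binding sites. GC content was 71.7% at the Ngfr start, 61.3% at the Ntrk2 start and 48.7% at the Bdnf start at 17.7 kb.

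The alternative starts of Bdnf were not equally open (plot of peaks over annotated starts). A start was counted as covered in a library when a peak overlapped at least 150 of its 300 bases. The start at 17.7 kb was covered in 11 of 11 hippocampus and 11 of 11 frontal cortex libraries, and the authors' fold enrichment of its peak, a value of each library's own list, was 4.76 to 6.20 (median 5.59) in hippocampus and 5.62 to 7.62 (median 6.89) in frontal cortex. The peak there ranked at the 89.7th percentile of a hippocampus library's intervals and at the 91.2nd of a frontal cortex library's (medians). The start at 2.3 kb was covered in 9 hippocampus and 8 frontal cortex libraries, and that at 34.7 kb in 9 and 10. The first start and the start at 18.3 kb were covered in no library. The start at 19.7 kb was covered in 0 hippocampus libraries and 1 frontal cortex library. The start at 48.2 kb was covered in 3 hippocampus libraries (1 saline and 2 LPS 24 h) and in 0 frontal cortex libraries. Over all promoters, 45.1% to 47.7% were covered in a hippocampus library and 44.7% to 47.5% in a frontal cortex library.

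**Figure D1:**
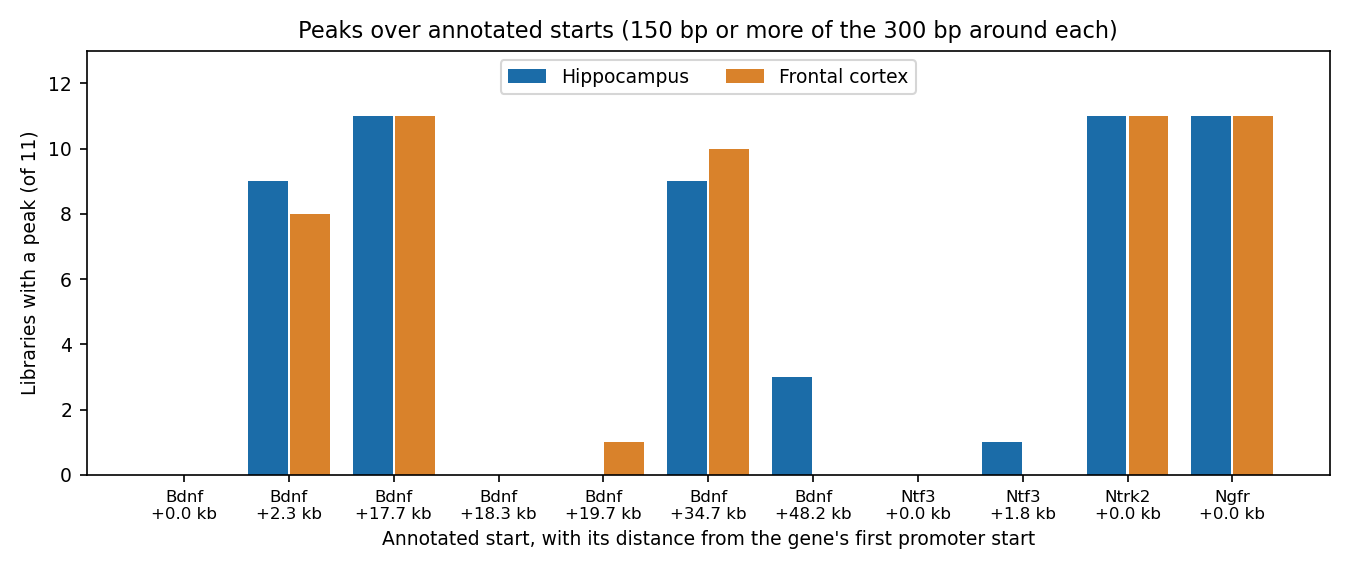
Number of libraries, of 11 per tissue, with a peak over each of the 11 annotated starts (hippocampus left, frontal cortex right of each pair; the x axis gives the distance from the gene's first promoter start in kb). The Bdnf start at 17.7 kb and the Ntrk2 and Ngfr starts reach 11 in both tissues, while the first Bdnf start has no bar.

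The starts of the other genes differed as well. At Ntrk2 the start was covered in all 22 libraries, with a fold enrichment of 4.15 to 5.25 (median 4.57) in hippocampus and 4.22 to 5.08 (median 4.81) in frontal cortex. At Ngfr it was covered in all 22, with 7.23 to 9.90 (median 8.72) in hippocampus and 6.47 to 9.79 (median 8.01) in frontal cortex. At Ntf3 the first start was covered in none and the start at 1.8 kb in 1 hippocampus library and 0 frontal cortex libraries. Near the annotated Ntrk3 start, a window at -0.5 kb held a peak in 0 hippocampus libraries and 1 frontal cortex library. Another at -1.3 kb (chr7:78582092-78582592) held one in 0 hippocampus and 7 frontal cortex libraries. It was called for frontal cortex (Fisher's exact test, adjusted p = 0.0156) but not when paired by animal (exact sign test, adjusted p = 0.0601). A window at 2.5 kb (chr7:78578248-78578748) held a peak in 11 hippocampus and 11 frontal cortex libraries.

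For the ligand Bdnf, more peaks were called in hippocampus than in frontal cortex. A gene's peak density is its number of distinct peak intervals per 100000 intervals of the library. Bdnf had 15 to 25 intervals (median 18) per hippocampus library and 11 to 18 (median 13) per frontal cortex library. Its density was 6.14 to 8.25 (median 6.71) in hippocampus and 4.51 to 6.79 (median 5.99) in frontal cortex, and 5 of 11 hippocampus libraries lay above every frontal cortex library. Hippocampus averaged 7.08 ± 0.761 and frontal cortex 5.85 ± 0.719 (SD, n = 11 each), a difference of 1.23 that held in 11 of 11 animals (permutation test over all 18783 genes tested, two-sided, Benjamini-Hochberg adjusted p = 0.00299). Of the genes tested, 16.1% were called higher in hippocampus and 26.5% higher in frontal cortex by this test, with a median difference of -0.155 (hippocampus minus frontal cortex). Counted in the gene body alone the Bdnf difference was 0.147 (permutation, adjusted p = 0.671), and among stricter peaks, those with a -log10 q of at least 5, it was 0.121 (adjusted p = 0.791), so the call ended in both cases. Among the 50000 strongest intervals of each library the Bdnf difference was 2 and was not called either (permutation, adjusted p = 0.0763).

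By single windows, Bdnf had 7 of 22 tested windows with a peak in more hippocampus libraries and 1 with a peak in more frontal cortex libraries (two-sided Fisher's exact test on 11 against 11 libraries, Benjamini-Hochberg adjusted over 327331 windows, under 0.05). That is 31.8% and 4.55% of its tested windows, beside 18.3% and 12.2% of all windows tested. Paired by animal, 2 of the 7 and the 1 were still called (exact sign test over animals, adjusted over all windows). The hippocampal windows included one 4.3 kb upstream (chr2:109670154-109670654, 10 hippocampus and 0 frontal cortex libraries, Fisher's exact test, adjusted p = 0.000297) and one 69.2 kb from the start, beyond the gene's end (chr2:109743608-109744108, 11 and 1, adjusted p = 0.000297). Another, at 48.3 kb, overlapped the start at 48.2 kb printed above (chr2:109722766-109723266, 11 and 4, Fisher's exact test, adjusted p = 0.0156; paired by animal, exact sign test, adjusted p = 0.0601). The frontal cortex window lay at 15.8 kb, upstream of the start at 17.7 kb (chr2:109690287-109690787, 1 and 11, Fisher's exact test, adjusted p = 0.000297). A further 8 Bdnf windows held a peak in every library, among them one just past the gene's end (53.0 kb). Ranked by -log10 p, the strongest Bdnf peak lay near 4 kb in the 9 LPS hippocampus libraries and near 37 kb in the 2 saline ones. In all 11 frontal cortex libraries it lay near 3 or 4 kb. Fold enrichment ranked these peaks otherwise, as the peak near 4 kb had 6.13 to 7.44 in the 9 LPS hippocampus libraries, lower than at 36.6 kb. At 36.6 kb the fold enrichment was 8.26 to 10.6 in the 9 LPS hippocampus libraries, against 12.7 and 10.8 in the 2 saline ones, a small gap that was noticed after the values were seen and was not tested. In frontal cortex the 2 saline libraries had 11.9 and 2.70 there, on either side of all LPS libraries.

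Ntf3, the ligand of TrkC, also had more peaks in hippocampus. It had 18 to 25 intervals (median 21) per hippocampus library and 14 to 21 (median 15) per frontal cortex library. Density was 7.16 to 9.12 (median 8.12) in hippocampus and 5.28 to 8.81 (median 6.76) in frontal cortex, so the tissues overlapped. The means were 8.15 ± 0.738 and 6.73 ± 0.991 (hippocampus and frontal cortex, SD, n = 11 each), a difference of 1.42 that held in 11 of 11 animals (permutation, adjusted p = 0.00634). Among the stricter peaks the Ntf3 difference was 2.16 (permutation, adjusted p = 0.000111), but among the 50000 strongest intervals it was -0.364 (adjusted p = 1), which ended the call and turned the direction. Called windows numbered 6 of 20 tested for hippocampus and 2 of 20 for frontal cortex (30% and 10%, beside 18.3% and 12.2% of all windows). Paired by animal, 4 of the 6 and 1 of the 2 were still called. Of the 6, 5 lay between 40.8 and 59.9 kb, toward the far end of the gene, and 1 beyond it at 74.0 kb. Those at 55.1 kb (chr6:126111392-126111892) and 42.7 kb (chr6:126123863-126124363) held a peak in all 11 hippocampus libraries and in no frontal cortex library (Fisher's exact test, adjusted p = 4.32e-05 each). The frontal cortex windows lay at 10.1 kb (2 hippocampus and 10 frontal cortex libraries) and 25.2 kb (5 and 11; paired by animal, exact sign test, adjusted p = 0.0988).

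**Figure D2:**
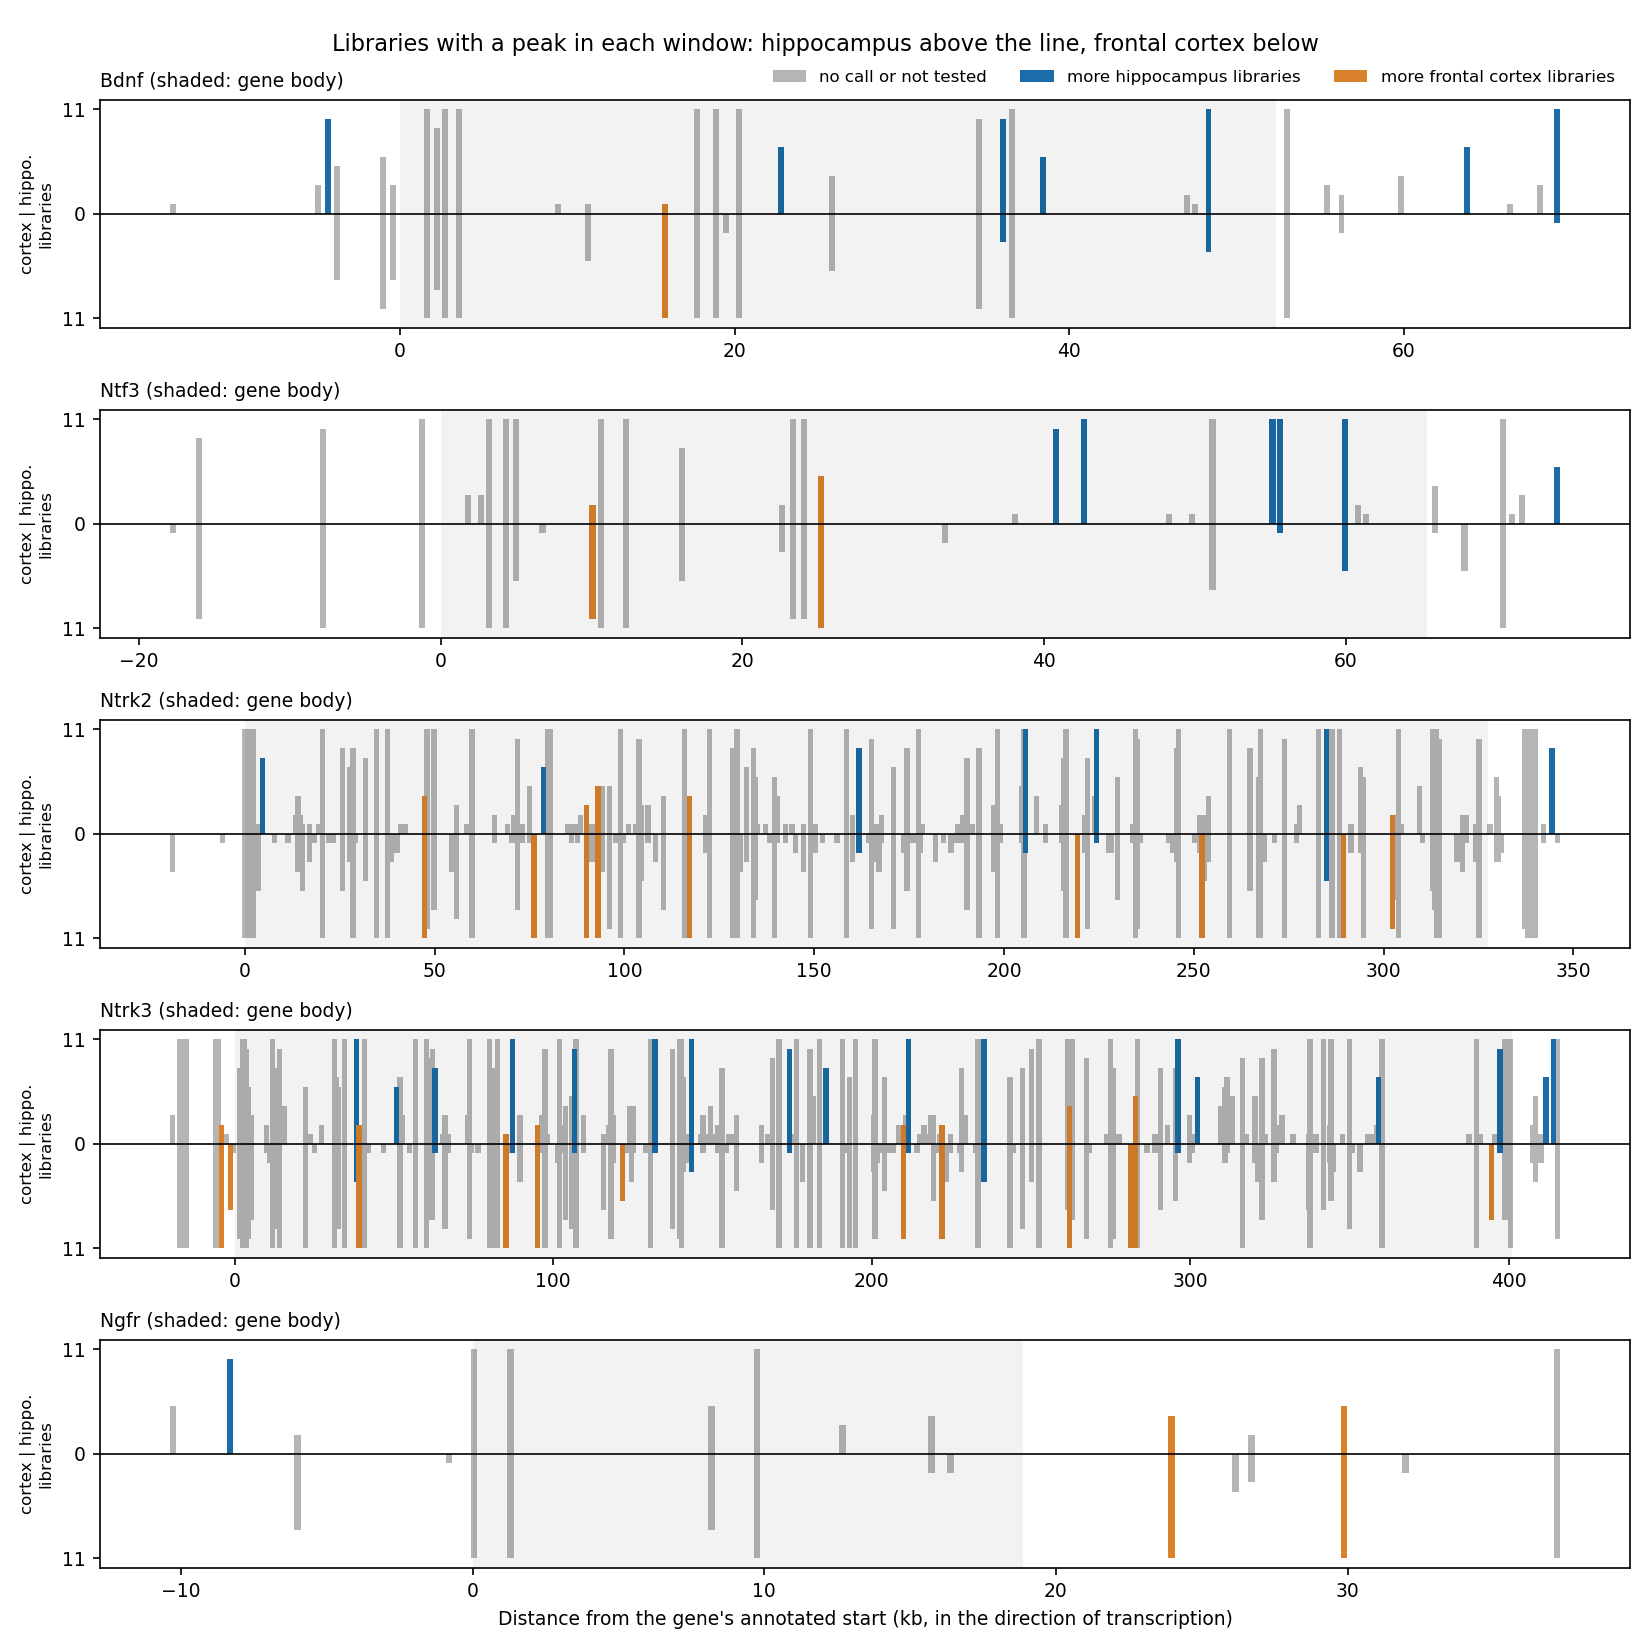
Number of libraries with a peak in each window along the 5 loci, hippocampus upward and frontal cortex downward (0 to 11 each), against the distance from the gene's annotated start in kb; coloured bars are windows called between tissues and the shading is the gene body. Hippocampal calls gather in the far end of Ntf3, while calls for both tissues lie interspersed along Ntrk2 and Ntrk3.

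The receptor gene Ntrk2 went the other way. It had 70 to 85 intervals (median 78) per hippocampus library and 79 to 95 (median 82) per frontal cortex library. Its density was 27.3 to 32.4 (median 29.7) in hippocampus and 33.1 to 38.6 (median 34.7) in frontal cortex, and the tissues did not overlap. Hippocampus averaged 29.8 ± 1.40 and frontal cortex 35.0 ± 1.77 (SD, n = 11 each), a difference of -5.24, with frontal cortex higher in all 11 animals (permutation, adjusted p = 0.000128). Ordered from the largest difference toward hippocampus down, Ntrk2 ranked 18654th of 18783 genes. Ntf3 ranked 857th, Bdnf 1099th, Ntrk3 6421st and Ngfr 14772nd. The difference is not divided by a gene's own density, so a gene with many peaks, such as Ntrk2, can reach a larger one. Called windows were few in both directions, 7 of 114 tested for hippocampus and 9 of 114 for frontal cortex (6.14% and 7.89%, under the 18.3% and 12.2% of all windows). Open in every frontal cortex library and in no hippocampus library were 4 windows, at 76.2, 219, 252 and 289 kb (Fisher's exact test, adjusted p = 4.32e-05 each; the first is chr13:58882380-58882880). The clearest hippocampal windows lay at 224 kb (chr13:59030516-59031016, 11 hippocampus libraries and 1 frontal cortex library, Fisher's exact test, adjusted p = 0.000297) and 206 kb (chr13:59011962-59012462, 11 and 2, adjusted p = 0.00145). Paired by animal, 4 of the 7 and 6 of the 9 were still called. Among the 50000 strongest intervals the density difference was 0. Another 32 windows of the locus were open in all 22 libraries.

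Ntrk3, the gene with the most peaks of the 5, showed no tissue difference in number. It had 91 to 111 intervals (median 104) per hippocampus library and 81 to 118 (median 95) per frontal cortex library. In density, hippocampus averaged 39.7 ± 2.63 and frontal cortex 39.6 ± 2.93 (SD, n = 11 each), a difference of 0.102 (permutation, adjusted p = 0.955), with differences within an animal between -4.78 and 6.55. Of 130 tested windows 17 were called for hippocampus and 12 for frontal cortex (13.1% and 9.23%, below the 18.3% and 12.2% of all windows). Paired by animal, 9 of the 17 and 8 of the 12 were still called. A window beyond the gene's end at 414 kb was open in 11 hippocampus libraries and 0 frontal cortex libraries (chr7:78166732-78167232), and one at 281 kb in 0 and 11 (chr7:78299575-78300075, Fisher's exact test, adjusted p = 4.32e-05 each). Pairs of opposite calls lay close together, such as 87.2 kb (11 hippocampus libraries and 1 frontal cortex library) and 85.2 kb (1 and 11).

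Ngfr, a small gene, had 5 to 14 intervals (median 8) per hippocampus library and 7 to 12 (median 9) per frontal cortex library. Density was 2.11 to 4.56 (median 2.87) in hippocampus and 2.87 to 4.91 (median 3.77) in frontal cortex, with 6 of 11 hippocampus libraries below every frontal cortex library. The means were 2.96 ± 0.791 and 3.69 ± 0.572 (hippocampus and frontal cortex, SD, n = 11 each), and the difference of -0.729 did not pass the test (permutation, adjusted p = 0.0531). Paired by animal it did (exact sign-flip permutation over 11 animals, adjusted p = 0.0220, lower in hippocampus in 10 of 11 animals), and it did among the stricter peaks (-1.29, adjusted p = 0.000111). In the gene body alone the Ngfr difference was -0.140 (permutation, adjusted p = 0.441). Of 12 tested windows, 1 was called for hippocampus, 8.3 kb upstream (chr11:95595770-95596270, 10 hippocampus libraries and 0 frontal cortex libraries, Fisher's exact test, adjusted p = 0.000297). The 2 frontal cortex windows lay beyond the gene's end at 24.0 kb (4 and 11) and 29.9 kb (5 and 11), and neither was called when paired by animal (exact sign test, adjusted p = 0.0601 and 0.0988). These shares, 8.33% and 16.7%, stand beside 18.3% and 12.2% of all windows.

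**Figure D3:**
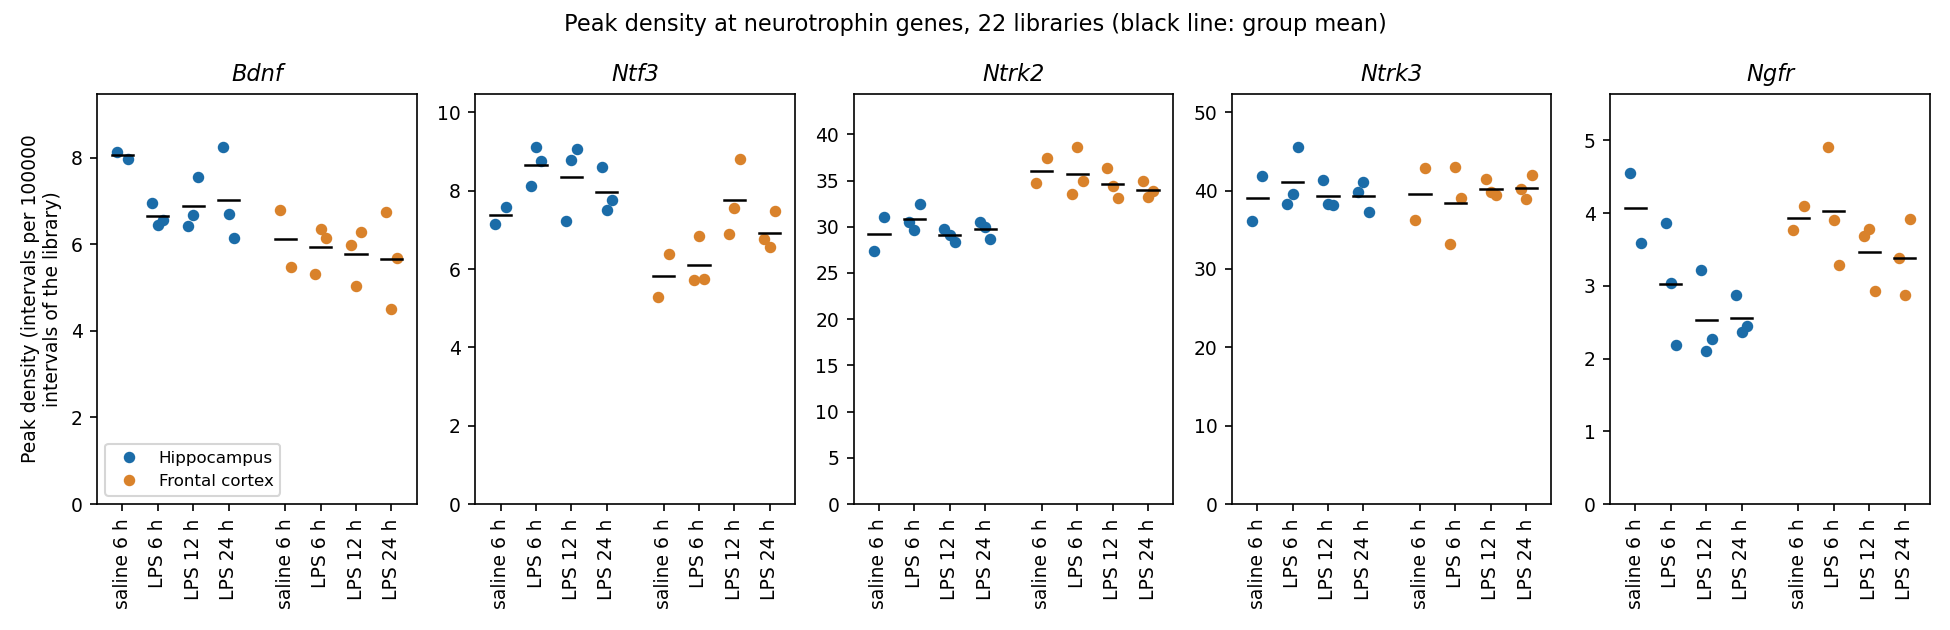
Peak density (intervals per 100000 intervals of the library) at each of the 5 genes, 1 point per library, with hippocampus in blue and frontal cortex in orange and each tissue ordered saline, LPS 6 h, 12 h and 24 h; black lines are group means. At Ntrk2 every frontal cortex library (33.1 to 38.6) lies above every hippocampus library (27.3 to 32.4), while saline and LPS libraries overlap at most genes.

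Over the 5 genes, 38 of 298 tested windows were called for hippocampus and 26 for frontal cortex. These are 12.8% and 8.72%, lower than the 18.3% and 12.2% of all windows. In order of mean density, Ntrk3 and Ntrk2 held the most peaks, then Ntf3, Bdnf and Ngfr, in both tissues. This order follows the span counted: per 10 kb of locus the windows numbered 5.25 at Ntrk2, 4.99 at Ntrk3, 3.68 at Bdnf, 3.42 at Ntf3 and 2.89 at Ngfr. No other protein-coding gene of the table reached into any of the 5 loci.

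Presence of a peak hides how strong it is, so windows were also compared in lists of equal length, the 50000 intervals of each library with the highest -log10 p. Of 71 windows of the 5 genes tested in these lists, 14 were called for hippocampus and 11 for frontal cortex (19.7% and 15.5%), near the 18.5% and 19% of all 79780 windows tested (plot of fold enrichment at strong windows). Only 1 of these 25 had also been called by presence, as most held a peak in nearly every library. Of 32 Ntrk3 windows tested, 8 were called for hippocampus and 6 for frontal cortex (25% and 18.8%), shares likewise near those of all windows. The window at 275 kb (chr7:78305740-78306240) held a peak in all 22 libraries, yet it was among the strongest in 0 of 11 hippocampus and 11 of 11 frontal cortex libraries (Fisher's exact test, adjusted p = 2.95e-05). The authors' fold enrichment there was 3.10 to 6.39 (median 4.97) in hippocampus and 9.10 to 13.8 (median 11.9) in frontal cortex, so the tissues did not overlap. At 184 kb (chr7:78397232-78397732) the counts were likewise 0 and 11, with 1.88 to 4.69 (median 2.80) in hippocampus and 6.93 to 9.63 (median 8.97) in frontal cortex. In the other direction, 5.1 kb upstream (chr7:78585878-78586378) the counts were 11 and 0, with 5.00 to 8.27 (median 7.15) in hippocampus and 2.70 to 4.92 (median 3.49) in frontal cortex. The neighbouring window at -4.1 kb was called for frontal cortex by presence (2 hippocampus and 11 frontal cortex libraries).

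Ranked by -log10 p, the strongest Ntrk3 peak of a library lay near 253 kb in 8 and near 275 kb in 3 frontal cortex libraries. Its fold enrichment was 9.88 to 14.6 over both places. In hippocampus this strongest peak lay near 191 kb in 6 libraries, about 5 kb upstream in 3, and elsewhere in 2, with 6.02 to 9.65. At Ntrk2, 4 windows were called for hippocampus and 5 for frontal cortex of 22 tested in the same lists. These shares, 18.2% and 22.7%, lay near the 18.5% and 19% of all windows tested in these lists. The window at 149 kb (chr13:58955270-58955770) was among the strongest in 11 hippocampus libraries and 0 frontal cortex libraries, and those at 79.8 and 304 kb in 0 and 11 (Fisher's exact test, adjusted p = 2.95e-05 each). The total number of strong Ntrk2 intervals did not differ, at 10 to 15 (median 13) in hippocampus and 11 to 15 (median 13) in frontal cortex. The strongest Ntrk2 peak by -log10 p lay near 268 kb in all 11 hippocampus and in 8 frontal cortex libraries. At Bdnf, the windows at 20.3 and 36.6 kb were among the strongest in 11 hippocampus and 4 frontal cortex libraries (Fisher's exact test, adjusted p = 0.0124 each). They were 2 of only 6 Bdnf windows tested (33.3%, beside 18.5% of all windows), and 0 of the 6 were called for frontal cortex. At 36.6 kb (chr2:109711011-109711511) fold enrichment was 8.26 to 12.7 (median 9.71) in hippocampus and 2.70 to 11.9 (median 5.71) in frontal cortex. At 20.3 kb the fold values nearly coincided (medians 5.21 and 4.98, hippocampus and frontal cortex). Ntf3, with 8 windows tested, and Ngfr, with 3, had none called. Neighbouring windows can lie in 1 interval, as the 3 Ntrk3 windows between 139.8 and 140.9 kb do, and the strong windows named were chosen after their values were seen.

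**Figure D4:**
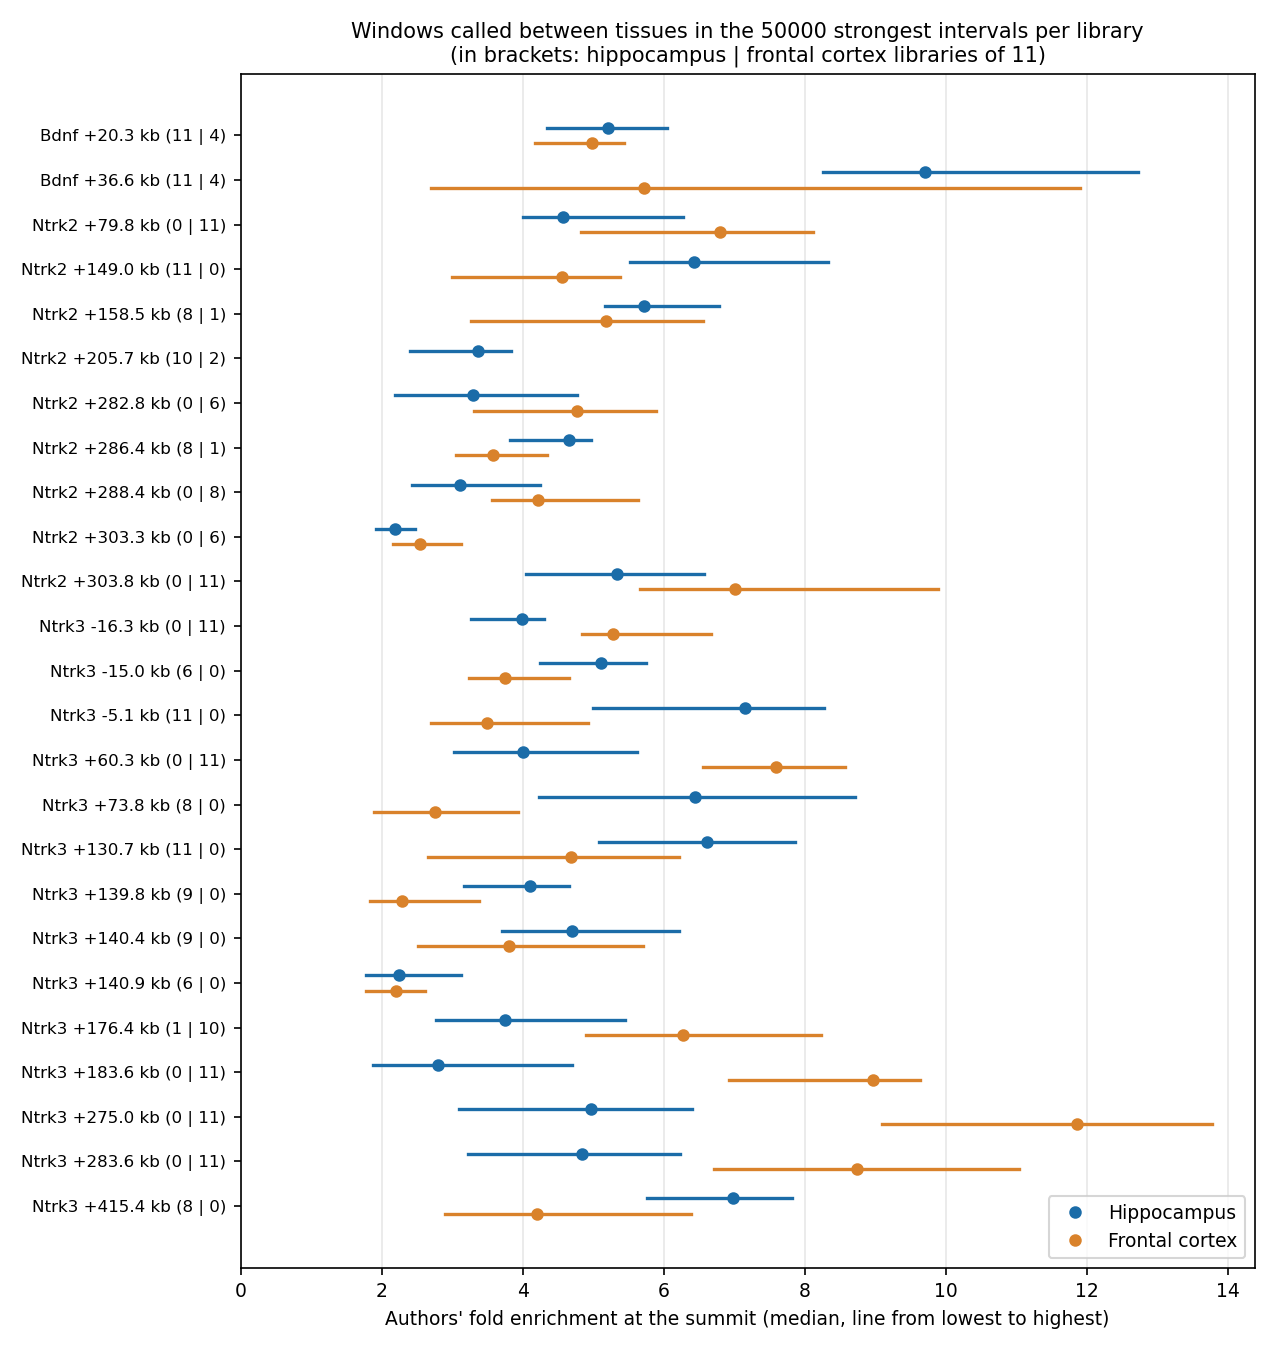
Fold enrichment deposited by the authors (x axis, from 0; point for the median and line from the lowest to the highest library) at the 25 windows called between tissues among the 50000 strongest intervals per library, hippocampus above frontal cortex in each row (no frontal cortex value is drawn for Ntrk2 at 206 kb). The Ntrk3 windows at 275 and 184 kb show tissue ranges that do not touch (3.10 to 6.39 and 9.10 to 13.8 at 275 kb).

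LPS was set against saline within each tissue, 9 libraries against 2. No gene density passed this test in either tissue, at the 5 genes or at any of the 18783 (exact permutation test, 55 splits, two-sided, adjusted p under 0.05: 0% of genes in hippocampus and 0% in frontal cortex). At an unadjusted p under 0.05 there were 791 genes in hippocampus and 752 in frontal cortex, and the smallest p this design allows is 0.0364. After adjustment over 18783 genes, a call would have needed most genes to reach that smallest p. The test could therefore hardly call a gene, and no absence of an LPS difference is read from it. The 9 LPS libraries of a tissue share the same 2 saline libraries. The summed density of the microglia markers was 36.5 to 40.5 after LPS and 38.3 to 38.7 after saline in hippocampus, and 40.1 to 44.0 after LPS and 36.2 to 39.2 after saline in frontal cortex, and its part in the values below was not tested.

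The lowest unadjusted p among the 5 genes was at hippocampal Ngfr. Its density was 3.87, 3.04 and 2.19 at LPS 6 h, 3.21, 2.11 and 2.26 at LPS 12 h, and 2.87, 2.37 and 2.45 at LPS 24 h, against 4.56 and 3.59 in saline hippocampus. All but 1 of the 9 LPS libraries lay below both saline libraries. The mean difference, LPS minus saline, was -1.37 (exact permutation p = 0.0727, adjusted p = 0.857). In frontal cortex the Ngfr difference was -0.307 (exact permutation p = 0.436).

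Hippocampal Bdnf had 6.96, 6.46 and 6.57 at LPS 6 h, 6.43, 6.67 and 7.55 at LPS 12 h, and 8.25, 6.71 and 6.14 at LPS 24 h, against 8.14 and 7.98 in saline hippocampus. Thus 8 of 9 LPS libraries lay below both saline libraries, and 1 LPS 24 h library lay above them. The difference was -1.20 (exact permutation p = 0.109, adjusted p = 0.858). In frontal cortex Bdnf averaged 5.79 ± 0.717 after LPS (SD, n = 9) and 6.13 ± 0.931 after saline (SD, n = 2), a difference of -0.339 (exact permutation p = 0.618). Ntf3 differed by 0.958 in hippocampus and 1.10 in frontal cortex (exact permutation p = 0.145 each). Ntrk2 differed by 0.651 in hippocampus and -1.27 in frontal cortex, and Ntrk3 by 0.907 and 0.144 (exact permutation p between 0.436 and 0.836).

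Among the 3 LPS times, no gene was called either (exact permutation over 280 partitions of 9 libraries; 0% of genes in each tissue; 1042 genes in hippocampus and 1470 in frontal cortex at an unadjusted p under 0.05; smallest possible p 0.00357). The lowest p of the 5 genes was at frontal cortex Ntf3, with means of 6.11 ± 0.639 at 6 h, 7.76 ± 0.967 at 12 h and 6.93 ± 0.481 at 24 h (SD, n = 3 each; exact permutation p = 0.0714, adjusted p = 0.601). The saline mean there was 5.83 ± 0.780 (SD, n = 2). The other 9 comparisons of times had exact permutation p between 0.193 and 0.896. Whether the LPS difference itself differed between tissues was tested on the difference within an animal, and no gene was called (0% of genes; 710 at an unadjusted p under 0.05). The smallest possible p was again 0.0364, so this exact permutation test too could hardly call a gene. For Ngfr the mean of hippocampus minus frontal cortex was -0.922 in LPS animals and 0.137 in saline animals (exact permutation p = 0.145).

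Single windows were then described by whether every LPS library of a time had a peak and no saline library did, or the reverse. With 3 libraries against 2 no two-sided exact test can go below p = 0.2, so these are counts without a test. In hippocampus 3, 5 and 3 windows of the 5 genes had a peak after LPS alone at 6, 12 and 24 h (0.836%, 1.43% and 0.847% of windows with a peak in either group). Over all windows the shares were 0.517%, 1.29% and 1.12%. A peak in saline alone was found at 6, 7 and 7 windows (1.67%, 2% and 1.98%), beside 1.51%, 1.39% and 1.61% of all windows. In frontal cortex LPS alone gave 1, 1 and 10 windows (0.310%, 0.314% and 2.99%), beside 0.66%, 0.942% and 3.03% of all windows. Saline alone gave 6, 3 and 4 (1.86%, 0.943% and 1.19%), beside 1.17%, 1.24% and 0.826%. The 10 windows at 24 h in frontal cortex lay at Ntrk2 (5), Ntrk3 (4) and Ntf3 (1), a share close to that of all windows. Bdnf had none in either tissue at any time.

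**Figure D5:**
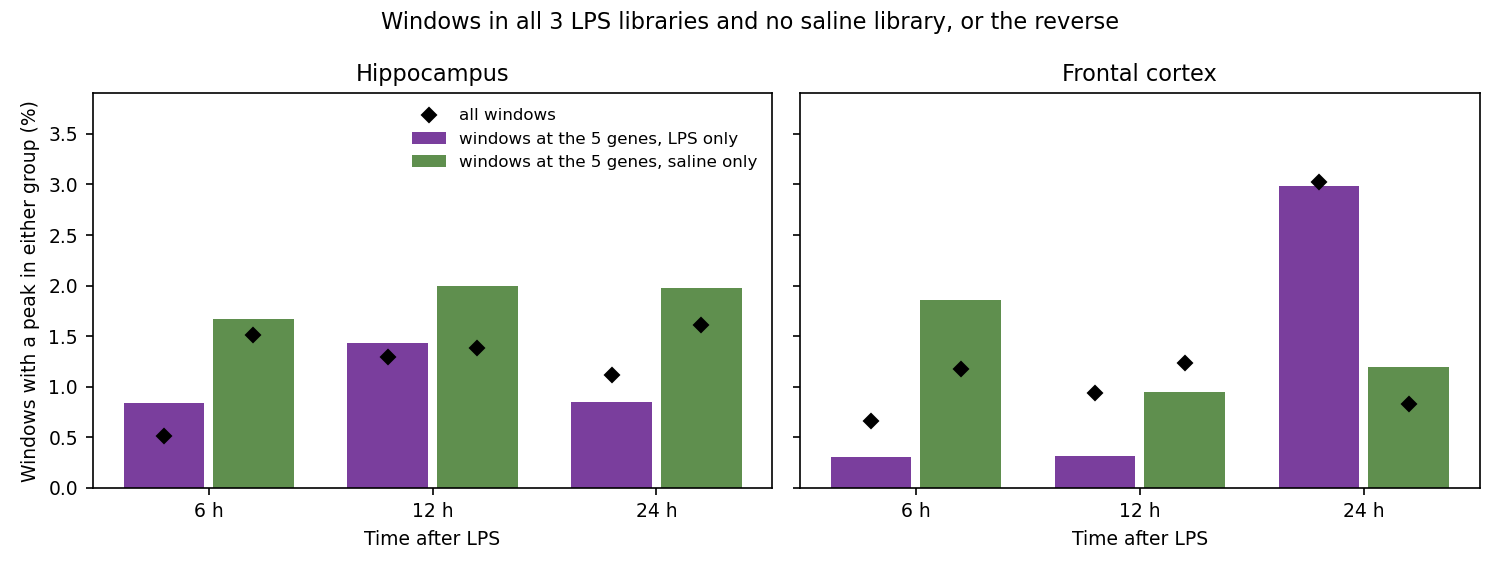
Share of windows, in percent of those with a peak in either group, with a peak in all 3 LPS libraries and no saline library (left bar) or in both saline libraries and no LPS library (right bar), by time in each tissue; diamonds give the share over all windows. The highest bar, frontal cortex at 24 h (2.99%), sits at the level of all windows (3.03%).

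In hippocampus 3 windows had a peak in both saline libraries and in 0 of 9 LPS libraries. That is 0.739% of the 406 windows of the 5 genes with a peak in hippocampus, beside 0.296% of all windows with a peak there, and 3 windows are too few to read a difference from. They lay 4.1 kb upstream of Ntrk3 (chr7:78584877-78585377), 6.0 kb upstream of Ngfr (chr11:95593445-95593945) and at 160 kb in Ntrk2 (chr13:58966339-58966839). In frontal cortex the Ntrk3 window was open in 9 of 9 LPS and 2 of 2 saline libraries, the Ngfr window in 7 of 9 and 1 of 2, and the Ntrk2 window in 2 of 9 and 1 of 2. The Ntrk3 window at 291 kb (chr7:78290022-78290522) had a peak in 0 of 2 saline libraries of either tissue. After LPS it had a peak in 8 of 9 hippocampus and 7 of 9 frontal cortex libraries. It was picked by its values, and the share of all windows with such a pattern was not counted. The same 2 saline animals gave the saline libraries of both tissues, and the pattern was not tested.

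The authors tested each LPS time against saline within a tissue with csaw, a sliding-window method for read counts by which the deposited results are named, and kept regions up to a false discovery rate (FDR) of 0.05. The authors' deposited table for frontal cortex at 24 h held 6 regions at the 5 genes of 5540 in all, 5 with higher accessibility after LPS and 1 with lower. Of all regions in that authors' deposited table, 4986 were higher and 554 lower. The authors' deposited table for hippocampus at 12 h held 1 of 3084, and the other 4 authors' deposited tables held 0 of 23 to 366. At Ntrk3, the authors' deposited table for frontal cortex at 24 h gave higher accessibility in 3 regions in the gene, at chr7:78258401-78258560 (FDR 0.0397), chr7:78313501-78313760 (FDR 0.0220) and chr7:78357401-78357560 (FDR 0.0282). At Ntrk2 the authors' deposited table gave 1 higher region in the gene (chr13:58958701-58958760, FDR 0.0117) and 1 lower region 13731 bp past its end (chr13:59147701-59149260, FDR 0.0426). At Ntf3 the authors' deposited table gave 1 higher region 15829 bp upstream (chr6:126182601-126182860, FDR 0.0479). In hippocampus at 12 h the authors' deposited table gave 1 lower region in Ntrk3 (chr7:78540101-78540560, FDR 0.0202). No region at Bdnf or Ngfr was in any authors' deposited table. None of these 7 had an FDR of 0.01 or less in the authors' deposited tables.

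The deposited peaks at those regions were set beside the calls. At the Ntrk3 region at 78258401 a peak was present in 3 of 3 LPS 24 h and 1 of 2 saline frontal cortex libraries. At the Ntrk2 region at 58958701 a peak was present in 1 of 3 and 0 of 2. Both lower regions carried a peak in all 22 libraries, so there the authors' deposited tables report a difference in level where presence did not change.

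Outside the 5 genes, 33 other genes of the pathway were described as a list (precursor processing, co-receptors, adaptors and transcription factors). By peak density 2 were called higher in hippocampus and 13 higher in frontal cortex (beside 16.1% and 26.5% of all genes tested), with a median difference of -0.320 against -0.155 over all genes tested. The largest differences were at Sorcs1 (21.3 ± 1.45 in hippocampus and 28.3 ± 1.83 in frontal cortex, a difference of -6.96, lower in hippocampus in 11 of 11 animals) and Sorcs3 (-3.26), which encode sortilin-family receptors. Kidins220, a Trk-binding scaffold (-3.09), and Plcg1, the phospholipase recruited by Trk receptors (-2.19), followed (both lower in hippocampus; permutation, adjusted p between 0.000128 and 0.0143 over these 4). The 2 called higher in hippocampus were Rest, a repressor of neuronal genes (1.27), and Traf6, an adaptor of p75 (0.794).

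After LPS, the authors' deposited tables held regions within 20 kb of genes that include Sorcs1, Sorcs2, Sorcs3, Mmp9, Shc3, Frs2, Sh2b2, Plcg1 and Lingo1. The share of all genes with such a region was not counted. Some lay outside the gene, as at Plcg1 (12000 bp away, assigned to Top1 in the authors' deposited table). In the authors' deposited tables those at Frs2 in hippocampus (14967 bp, assigned to Cct2) and Shc3 (19500 bp, no gene assigned) did too. The region at Sh2b2, an adaptor of receptor kinases, was the same in all 6 authors' deposited tables (chr5:136224401-136224960). These authors' deposited tables gave it lower accessibility after LPS each time, with an FDR between 2.34e-08 and 0.0185. The 6 comparisons are not independent, since the same 2 saline animals are the baseline of each. The lowest FDR of a higher region on the list was at Sorcs3 in the authors' deposited table for frontal cortex at 24 h (chr19:48361951-48362210, FDR 2.89e-05). At Mmp9, a protease that can cleave pro-BDNF, the authors' deposited tables gave 1 lower region in each of frontal cortex at 24 h (chr2:164962251-164963910, FDR 0.00358, which they assign to an exon of Slc12a5) and hippocampus at 12 h (chr2:164947151-164947260, FDR 0.0220).

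The genes whose density over the 22 libraries was most like that of each gene were listed by Pearson's r, as a description, since libraries share tissue and total. For Bdnf they were Thumpd2 (0.812), F2r (0.809) and 1700024G13Rik (0.809), and for Ntf3 Kiz (0.789), Dcaf12l2 (0.779) and Rhoh (0.770). For Ntrk2 they were Olfr878 (0.938), Herc3 (0.934) and Kbtbd8 (0.924), and for Ntrk3 Appl2 (0.771), Timp3 (0.742) and Ube2t (0.722). For Ngfr they were Padi4 (0.835), G6pdx (0.809) and Carhsp1 (0.796).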

How the data were processed

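Per the labels' protocols, 20 to 30 mg of frozen tissue was used for OMNI-ATAC-seq, with paired 50 bp reads. MACS2 2.2.7.1, Bowtie2 2.4.4, Trim Galore 0.6.7 and FastQC 0.11.9 are listed in the submitters' processing notes, with the build GRCm38 (mm10); a shift of reads for the transposase is not stated there. Peaks come 1 list per library, and 1 baseline animal was excluded by the authors for low depth. The values the authors deposited with a peak are -log10 p, -log10 q, fold enrichment (a ratio to local background) and an integer score, which was not used. The lowest deposited -log10 q per library was 0.501 to 0.643, so weak peaks are included. The authors' differential tables hold a direction and another number per region, deposited without a header; this number was taken as the FDR on a scale of -10 log10, since no region then exceeds 0.05, and starts were taken as 1-based.

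Windows of 250 bp to either side were placed on summits without overlap, and a peak had to cover at least 50% of the shorter. Windows with a peak in 2 to 20 libraries and genes with a mean of 1 interval or more were tested, with 100000 permutations for gene density between tissues; several summits of 1 interval counted once. The genes, lists and alternatives were chosen with earlier results of these data known. Windows named are up to 5 per gene and direction with the lowest Fisher p, those within 1 kb of a gene end, those that switch with LPS, and every authors' region; a selection is printed, and some results are not reported here. Of the list genes, the 4 with the largest called difference and those with an authors' region are named, and the 3 genes of highest correlation per gene. The tissues pair by animal, as the labels give 1 animal for both; deviations of the same animal's libraries correlated at -0.0309 to 0.173, and where pairing changes calls the paired count or value is given. Alternatives were stricter peaks, equal list lengths, overlap, margin, scaling, summits, filters, thresholds and leaving out each library or animal. The tests were tested on simulated data. The lists hold no read totals, so the depth is unknown and no counting interval is given. Gene starts and promoters come from RefSeq (GRCm38.p6); exons were not used here. Software was scipy 1.17.1, numpy 2.4.6, numba 0.67.0, pandas 2.3.3 and matplotlib 3.10.9 under Python 3.11.15.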

Additional observations from a re-analysis of the deposited data

Results flagged for a closer look

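In each tissue the 9 LPS libraries were searched for a highest or lowest value far from the others, at each of the 5 genes. Of 10 such groups 2 were marked, both at Ntrk3, where chance marks about 1 in 20. In hippocampus, LPS 6 h replicate 4 had an Ntrk3 density of 45.6, above the next LPS library at 41.4. In frontal cortex, LPS 6 h replicate 1 had an Ntrk3 density of 33.1, below the next at 39.0. Without the first of these animals the Ntrk3 difference between tissues was -0.543, and without the second it was -0.402; neither passed the test (permutation, adjusted p = 0.735 and 0.792).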

How the results depend on the processing

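The 26 to 38 windows called per tissue at the 5 genes depended on how peaks were counted. Against 38 hippocampal and 26 frontal cortex windows by presence, 14 and 11 were called among the 50000 strongest intervals per library, of which 1 and 0 were also called by presence. At an adjusted p under 0.01 there were 21 and 16. With 100 kb around each gene there were 62 and 40. A stricter threshold can only lower such counts, and a wider margin can only raise them. With the replicate block (an exact sign test over animals) there were 20 and 16, all of them among the 38 and 26. Leaving out 1 animal gave 31 to 36 and 22 to 27. The share of all windows called was not counted at this threshold or margin, with the block or without an animal. Nothing particular to the 5 genes is read from these counts. Of 5 genes, 3 were called by density; among the strongest intervals 0 were, with differences of 2 for Bdnf (adjusted p = 0.0763), 0 for Ntrk2 (adjusted p = 1) and -0.364, reversed, for Ntf3 (permutation, adjusted p = 1). With the replicate block 4 were called, Ngfr being added, and 3 to 4 were called when 1 animal was left out: without the saline replicate 2 animal the Ngfr difference was -0.881 (permutation, adjusted p = 0.0157). The block changed no other call of gene density. The Ntrk3 tissue difference was -1.72 among stricter peaks (-log10 q of at least 5), -1.82 among the strongest intervals, and -0.543 to 0.590 when 1 animal was left out. The cause of these changes was not tested.

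With no more than 2 saline libraries, the test of LPS against saline could hardly call a gene in any setting. Differences between LPS and saline that changed sign passed it in no setting. In hippocampus, among stricter peaks, they were -0.0599 for Ntf3, -1.54 for Ntrk2 and -0.923 for Ntrk3. Among the strongest intervals they were -2.67 for Ntrk2, -0.111 for Ntrk3 and 0.778 for Ngfr, and undivided by the total -3.89 for Ntrk2 and -5.11 for Ntrk3. In frontal cortex, among the strongest intervals, they were 2.33 for Bdnf and 0.667 for Ngfr. Leaving out 1 library gave -1.23 to 2.53 for Ntrk2 and -1.96 to 3.77 for Ntrk3 in hippocampus, and -0.997 to 0.319 for Bdnf, -2.61 to 0.081 for Ntrk2 and -3.18 to 3.47 for Ntrk3 in frontal cortex. Replicate numbers did not pair the LPS times (correlations -0.142 to 0.0771), and a replicate block there, which leaves few permutations, called 0 of the 5 genes. LPS and saline share too few numbers for such a fit.

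Windows with a peak in LPS alone, summed over times, numbered 11 in hippocampus (5 with stricter peaks; 12 to 46 when 1 library was left out) and 12 in frontal cortex (6 among the strongest; 13 to 46). In saline alone they numbered 20 in hippocampus (7 among the strongest; 21 to 111) and 13 in frontal cortex (8 with stricter peaks, 3 among the strongest; 13 to 85). The highest of these came from leaving 1 saline library. Leaving out a library loosens the rule, so these counts can only stay or rise. The share of all windows under the looser rule was not counted. In the authors' deposited tables, the 6 regions for frontal cortex at 24 h and the 1 for hippocampus at 12 h became 0 at an FDR of 0.01, and the 1 became 4 with 100 kb. Peak lists give no read depth, so a peak missing from a library may be one that its depth could not show.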
